A study of Homo sapiens with 4 samples.

Results

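The laminin chains described here are 9 human genes, 4 for alpha chains (LAMA2, LAMA3, LAMA4 and LAMA5), 3 for beta chains (LAMB1, LAMB2 and LAMB3) and 2 for gamma chains (LAMC1 and LAMC3), of 19732 gene symbols in the deposited A549 table. They were chosen by gene symbol from a list drawn up with the values of these libraries known, so their levels and differences are a description and carry no test. Other laminin chains were not analysed here. The groups were A549 cells with a knockdown of RBM4, an RNA-binding protein that acts in splicing and translation, and A549 control cells, each with 1 library and so with no replicate error. A549 is an established line of human lung adenocarcinoma cells, described by the labels as lung cancer cells. The knockdown sample is titled A549sh and the control sample A549control. The agent behind the knockdown and the form of the control are not described beyond these titles. The series also holds a control and a knockdown of H1299, a second lung cancer line; H1299 was not analysed here.

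Laminins are large secreted glycoproteins of the basement membrane, the sheet of matrix under epithelia and around vessels and muscle. Each is built from 1 alpha, 1 beta and 1 gamma chain that join through a coiled coil inside the cell, and a trimer is named by the numbers of its chains. The short arms bind other laminins and nidogen, while the end of the alpha chain binds integrins and dystroglycan on cells. In lung, alveolar and airway epithelia rest on basement membranes rich in the alpha 5 and alpha 3 chains.

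Levels are in FPKM, a unit that corrects fragments for the length of the transcript and the size of the library, here added up over the listed transcripts of a gene. The libraries held 622366 FPKM in the knockdown and 671529 FPKM in the control over all transcripts, with 21.7% of that from the mitochondrial genome in the knockdown and 18.6% in the control, and the number of reads behind them is unknown. A pseudocount of 1 FPKM was added to both levels before the log2 of knockdown over control was taken, so low genes differ by more than the scale shows. Bare numbers in brackets below are log2 differences on that scale. A gene counts as measured at 1 FPKM or more in either library, which held for 12230 symbols. RBM4 itself had 30.6 FPKM in the knockdown library and 59.4 FPKM in the control library, 51.5% of the control (log2 difference -0.93). The 2 libraries were told apart by their column names alone, and every direction below rests on that.

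Of the 9 laminin genes, 7 were measured, and each of the 7 was higher in the knockdown library than in the control library. Over all measured genes, 46.6% were higher in the knockdown library. LAMC1, LAMB1 and LAMA5 were the most abundant and had the largest differences, while LAMA3 was nearly level. The median difference of the 7 was 0.64, against -0.04 over all measured genes, and the values ran between 0.05 for LAMA3 and 0.98 for LAMC1. No member differed by 2-fold or more, where 7.21% of all measured genes did, 4.96% higher and 2.25% lower. Since the members were chosen with this contrast known, nothing is read from their count. LAMC1 and LAMB1 lay just under 2-fold and passed it, at 1.08 and 1.0005, when both libraries were scaled to the same total, a step that moved the median of all genes to 0.064. Measured from the median of all genes, LAMC1 was at 1.01 as deposited and at 1.02 after that scaling, and LAMB1 was at 0.93 and 0.94. In RNA from whole cultures, a change in the share of cells that make a chain and a change in RNA per cell cannot be told apart.

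**Figure D1:**
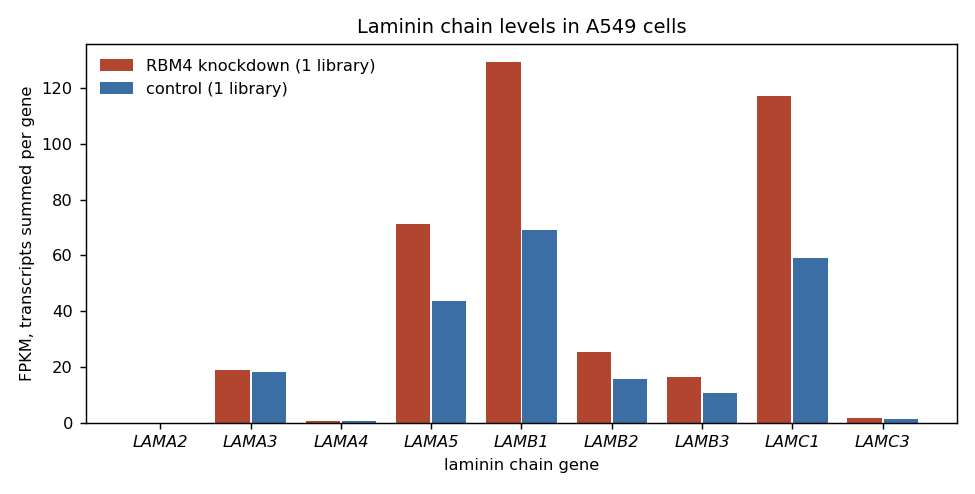
FPKM of the 9 laminin chain genes (bars, vertical axis, from 0) in the RBM4 knockdown library (left bar of each pair) and the control library (right bar), 1 library each. LAMB1, LAMC1 and LAMA5 stand highest in both libraries, and LAMA3 has bars of nearly equal height at 18.8 FPKM in the knockdown and 18.2 FPKM in the control library.

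The alpha chains carry the cell-binding end of the trimer and set its receptor. LAMA5 (ENSG00000130702, chromosome 20, 62307955 to 62367312, minus strand, hg38) encodes alpha 5, the widespread alpha chain of adult epithelia. It had 71.3 FPKM in the knockdown library and 43.5 FPKM in the control library, a ratio of 1.64 (log2 difference 0.70), and 9.77% of measured genes had a higher difference. LAMA3 (ENSG00000053747, chromosome 18, 23689443 to 23956222, plus strand) encodes alpha 3, a chain of epithelial anchoring structures. It had 18.8 FPKM in the knockdown library and 18.2 FPKM in the control library, a ratio of 1.03 (0.05). LAMA5 was thus higher in the knockdown library and LAMA3 nearly level. Of the summed FPKM of the alpha chain members, LAMA5 made up 78.4% in the knockdown library and 69.8% in the control library. LAMA5 shares exon positions with ADRM1 and with the antisense gene LAMA5-AS1 on the opposite strand, and since no strand setting is given its value is uncertain to that extent.

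The remaining alpha chains among the members were below 1 FPKM in both libraries. LAMA4 (ENSG00000112769, chromosome 6, 112108760 to 112254939, minus strand) encodes alpha 4, known from vessels and fat. It had 0.726 FPKM in the knockdown library and 0.600 FPKM in the control library. LAMA2 (ENSG00000196569, chromosome 6, 128883141 to 129516569, plus strand) encodes alpha 2, the chain of the muscle and nerve basement membrane that is lost in a congenital muscular dystrophy. It had 0.0553 FPKM in the knockdown library and 0.0380 FPKM in the control library. Both overlap exons of an antisense gene, neither was measured, and no fold is drawn from them. LAMA4 fell just outside the minimum of 1 FPKM, and LAMC3, at 1.77 FPKM in the knockdown and 1.40 FPKM in the control library, lay just inside it.

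Among the beta chains LAMB1 was the most abundant and had the largest difference. LAMB1 (ENSG00000091136, chromosome 7, 107923799 to 108003255, minus strand) encodes beta 1, the beta chain of most embryonic and many adult laminins. It had 129 FPKM in the knockdown library and 69.3 FPKM in the control library, a ratio of 1.87 (0.89), and 6.38% of measured genes had a higher difference. LAMB1 overlaps exons of DLD and of an antisense gene on the opposite strand and is uncertain to that extent. LAMB2 (ENSG00000172037, chromosome 3, 49121114 to 49133118, minus strand), whose product beta 2 is the chain of the kidney filter and the nerve-muscle synapse, had 25.2 FPKM in the knockdown library and 15.8 FPKM in the control library, a ratio of 1.60 (0.64). LAMB3 (ENSG00000196878, chromosome 1, 209614870 to 209652466, minus strand), whose product beta 3 anchors skin and other epithelia, had 16.2 FPKM in the knockdown library and 10.6 FPKM in the control library, a ratio of 1.53 (0.57). The makeup of the beta class was similar in both libraries. Of the summed FPKM of the beta chain members, LAMB1 held 75.7% in the knockdown and 72.4% in the control library.

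Of the 2 gamma chain genes among the members, LAMC1 was abundant and LAMC3 was near the lower limit. LAMC1 (ENSG00000135862, chromosome 1, 183023460 to 183145592, plus strand) encodes gamma 1, the gamma chain of most laminin trimers. It had 117 FPKM in the knockdown library and 59.2 FPKM in the control library, a ratio of 1.98 (0.98), and 5.26% of measured genes had a higher difference. LAMC3 (ENSG00000050555, chromosome 9, 131009082 to 131094473, plus strand) encodes gamma 3, a chain of few tissues. It had 1.77 FPKM in the knockdown library and 1.40 FPKM in the control library (0.20).

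The levels ran in nearly the same order in both libraries. In the knockdown library it was LAMB1, LAMC1, LAMA5, LAMB2, LAMA3, LAMB3, LAMC3, LAMA4 and LAMA2, and in the control library LAMA3 stood above LAMB2 with the order otherwise the same. With transcripts of incomplete coding ends left out, LAMA3 was below LAMB2 in the control library too, at 12.9 FPKM against 15.8 FPKM. With 1 library per group no spread is known, so whether neighbours such as LAMB1 and LAMC1 differ cannot be said. The ratio of LAMB1 to LAMC1 was 1.10 in the knockdown and 1.17 in the control library, so these partners in the coiled coil were at similar levels in each. The ratio of LAMA5 to LAMC1 was 0.608 in the knockdown and 0.735 in the control library. Within classes, LAMA5 was 3.78 times LAMA3 in the knockdown and 2.39 times in the control library, and LAMB1 was 5.13 times LAMB2 in the knockdown and 4.39 times in the control library. Both LAMB1 and LAMC1 were among the more abundant genes: 4.51% of measured genes had a higher level than LAMB1 in the knockdown and 10.4% in the control library, and for LAMC1 the shares were 5.09% in the knockdown and 12.3% in the control library.

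The upstream sequences of LAMA5, LAMB1 and LAMC1 are shown because their products together form laminin-511, the trimer with the most abundant chains here. They come from RefSeq (GRCh38.p14), start 250 bases before the RefSeq start, and stop before any start that RefSeq or GENCODE annotates, which leaves 156 bases for LAMB1. Each is written 5′ to 3′ on the strand of the gene, and capitals mark matches to the GC box, GGGCGG, on either strand. The windows are chr20:62367313-62367562 on the minus strand for LAMA5, chr7:108003256-108003411 on the minus strand for LAMB1 and chr1:183023170-183023419 on the plus strand for LAMC1.
LAMA5: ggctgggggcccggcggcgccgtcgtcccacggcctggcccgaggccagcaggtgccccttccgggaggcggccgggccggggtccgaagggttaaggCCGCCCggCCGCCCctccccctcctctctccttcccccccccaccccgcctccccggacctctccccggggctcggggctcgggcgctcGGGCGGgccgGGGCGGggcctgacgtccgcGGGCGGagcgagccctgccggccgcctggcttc
LAMB1: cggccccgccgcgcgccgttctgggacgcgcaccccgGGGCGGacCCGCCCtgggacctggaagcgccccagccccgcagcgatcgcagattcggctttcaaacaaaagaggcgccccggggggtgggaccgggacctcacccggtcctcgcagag
LAMC1: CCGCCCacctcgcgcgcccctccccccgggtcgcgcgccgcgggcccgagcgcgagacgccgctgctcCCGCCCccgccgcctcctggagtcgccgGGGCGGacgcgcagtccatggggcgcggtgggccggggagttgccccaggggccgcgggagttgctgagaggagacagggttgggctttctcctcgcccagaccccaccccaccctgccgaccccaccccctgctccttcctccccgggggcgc

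The 3 windows are rich in G and C, at 82.8% for LAMA5, 75.0% for LAMB1 and 79.6% for LAMC1. The GC box, the known motif of the SP1 family, matched 5 times in the LAMA5 window, 2 times in LAMB1 and 3 times in LAMC1. Of 35116 RefSeq windows of the same position and length, 42.6% held a match in the 250 bases and 26.9% in the 156 bases. The AP-1 motif TGANTCA and the CCAAT box, searched on both strands, had no match in these windows, and 6.57% and 32.0% of all 250-base windows held them. In the 156 bases, the length for LAMB1, the shares were 3.98% and 19.7%. A match describes letters only and names neither a bound site nor a cause of any difference.

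Of the 11 laminin trimers listed that can be built from these 9 genes, the measured chains allowed 5 in the knockdown library and the same 5 in the control library. A trimer was taken as allowed where all 3 of its chains were at 1 FPKM or more, and its lowest chain was taken as limiting. Messenger RNA does not show that a trimer is made, since chains are matched and secreted as protein. For laminin-511, of alpha 5, beta 1 and gamma 1, the limiting chain was LAMA5, at 71.3 FPKM in the knockdown and 43.5 FPKM in the control library. For laminin-521, with beta 2 in place of beta 1, LAMB2 was limiting at 25.2 FPKM in the knockdown and 15.8 FPKM in the control library.

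The trimers with alpha 3 showed less difference at their limiting chain. For laminin-311 it was LAMA3, at 18.8 FPKM in the knockdown and 18.2 FPKM in the control library. For laminin-321 the limiting chain differed between libraries: it was LAMA3 at 18.8 FPKM in the knockdown library and LAMB2 at 15.8 FPKM in the control library. That switch rests on LAMA3 transcripts with incomplete coding ends. With such transcripts left out, LAMA3 was limiting in both, at 13.8 FPKM in the knockdown and 12.9 FPKM in the control library. Laminin-523, known from retina, was allowed narrowly, with LAMC3 limiting at 1.77 FPKM in the knockdown and 1.40 FPKM in the control library. The 6 trimers not allowed were the 3 with LAMA2 and the 3 with LAMA4. At a minimum of 0.5 FPKM the LAMA4 trimers passed as well and 8 trimers were allowed in each library, and at 5 FPKM laminin-523 dropped out and 4 were. LAMB3 enters none of the 11, which were limited to chains of the member genes. Trimers with other laminin chains were not examined.

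**Figure D2:**
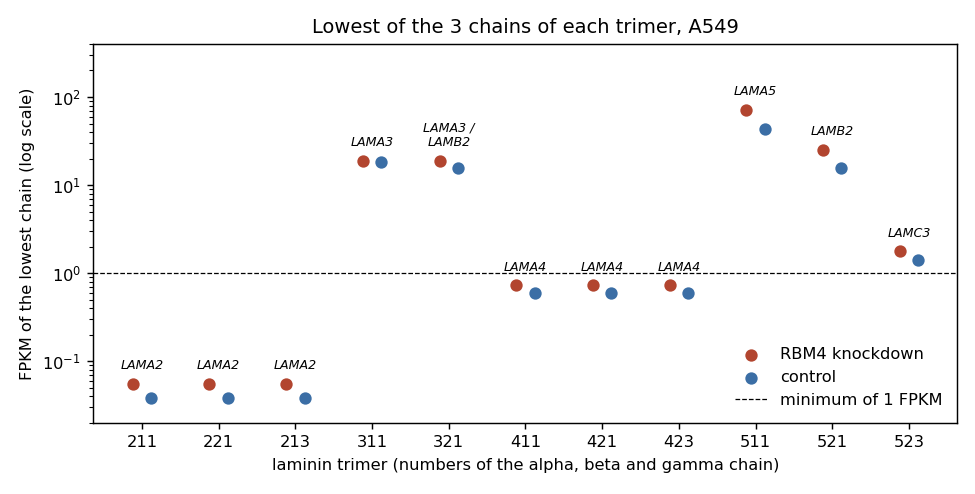
FPKM of the lowest of the 3 chains (log axis) for each of the 11 trimers, with the limiting gene written above, in the RBM4 knockdown library (left point) and the control library (right point). Laminin-511 stands highest, at 71.3 FPKM in the knockdown and 43.5 FPKM in the control library, and the LAMA2 and LAMA4 trimers lie under the dashed line at 1 FPKM.

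The sum for a gene mixes full-length transcripts with short fragments, and FPKM weighs a read on a short transcript more. All of the 45 listed transcripts of the 9 genes matched GENCODE release 29 by identifier, and 34 had a value above 0 in a library. For LAMC1 the full-length transcript ENST00000258341, of 7889 bases and 1609 codons, had 89.7 FPKM in the knockdown library and 49.5 FPKM in the control library (0.84). The other LAMC1 transcript, ENST00000484114, is a fragment of 657 bases with an incomplete coding end, and had 27.6 FPKM in the knockdown library and 9.65 FPKM in the control library (1.42). It made up 23.5% of LAMC1 FPKM in the knockdown and 16.3% in the control library, and part of the difference of the LAMC1 sum lies there.

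LAMA5 and LAMB1 were less affected by fragments. The full-length LAMA5 transcript ENST00000252999, of 11426 bases and 3695 codons, held 97.8% of the gene in the knockdown and 96.7% in the control library. The main LAMB1 transcript ENST00000222399, of 1786 codons, had 102 FPKM in the knockdown library and 56.7 FPKM in the control library (0.83), and all 5 LAMB1 transcripts were higher in the knockdown library. The LAMB2 transcripts ENST00000418109 and ENST00000305544 both encode 1798 codons. The first had 12.9 FPKM in the knockdown and 9.26 FPKM in the control library (0.44), and the second had 12.3 FPKM in the knockdown and 6.52 FPKM in the control library (0.82). With transcripts of incomplete coding ends (fragments) left out, a step chosen after the data were seen, the differences were 0.84 for LAMC1, 0.86 for LAMB1, 0.71 for LAMA5, 0.62 for LAMB3 and 0.09 for LAMA3.

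LAMA3 makes a long and a short product from separate starts. The long transcript ENST00000313654, of 3333 codons, carries the extended short arm of alpha 3B, and the short transcript ENST00000269217, of 1724 codons, encodes alpha 3A, which lacks it. The long one had 12.7 FPKM in the knockdown library and 12.0 FPKM in the control library (0.07). The short one had 1.14 FPKM in the knockdown library and 0.931 FPKM in the control library (0.15). The long form thus held 67.3% of LAMA3 FPKM in the knockdown and 66.0% in the control library, and the short form 6.03% in the knockdown and 5.11% in the control library. The fragment ENST00000586751, of 3494 bases, had 3.69 FPKM in the knockdown and 1.70 FPKM in the control library, while 4 other fragments were lower in the knockdown library. The estimated share between overlapping transcripts depends on the authors' software, and the nearly level LAMA3 sum is a total of transcripts that differ in both directions.

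Both full-length LAMB3 transcripts with a value, ENST00000356082 and ENST00000391911, encode 1172 codons and were higher in the knockdown library, at 6.21 and 4.23 FPKM, than in the control library, at 4.00 and 2.44 FPKM. Fragments ENST00000415782 and ENST00000455193 made up 24.0% and 11.8% of LAMB3 FPKM in the knockdown and 24.1% and 15.3% in the control library. LAMC3 came almost wholly from ENST00000361069, of 1575 codons, with 1.77 FPKM in the knockdown and 1.36 FPKM in the control library. For LAMA4 the low signal was assigned to different transcripts in the 2 libraries. ENST00000522006 had 0.404 FPKM in the knockdown library and was listed at 0 in the control library, whereas ENST00000389463 was listed at 0 in the knockdown library and had 0.302 FPKM in the control library.

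**Figure D3:**
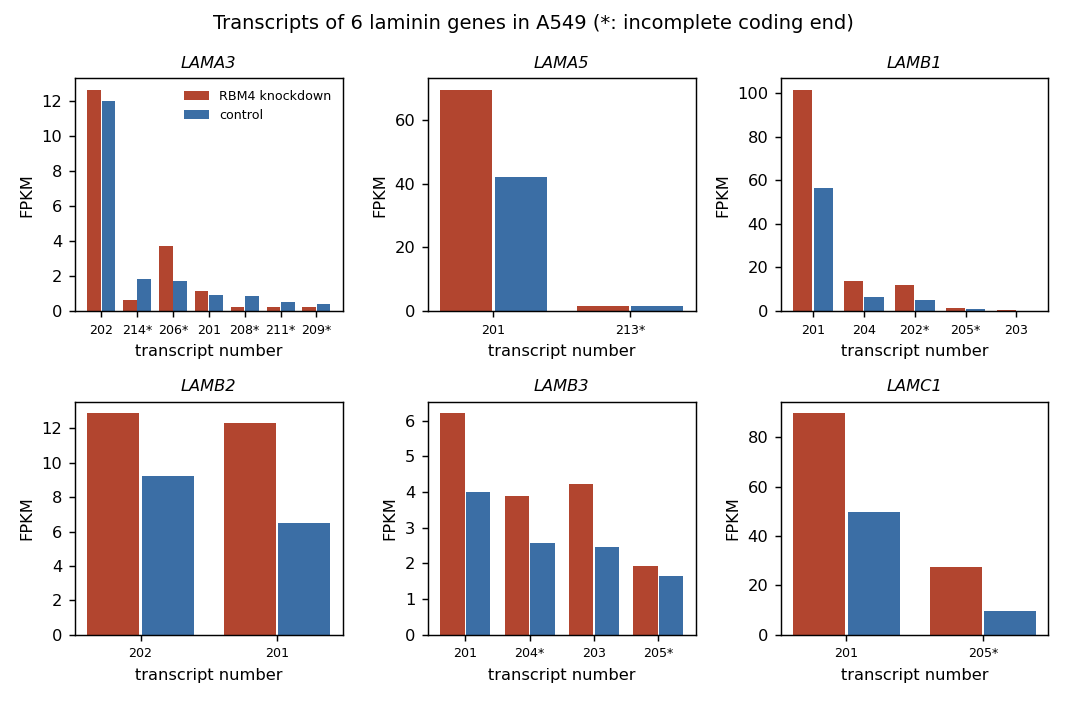
FPKM of each transcript above 0 (bars, by transcript number, fragments with an incomplete coding end starred) of 6 laminin genes in the RBM4 knockdown library (left bar) and the control library (right bar). The full-length LAMC1, LAMB1 and LAMA5 transcripts are higher in the knockdown library, and the long LAMA3 transcript is nearly level, at 12.7 FPKM in the knockdown and 12.0 FPKM in the control library.

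Most measured basement membrane genes that laminin meets in the matrix were at higher levels in the knockdown library. They were 16 of 18, where 46.6% of all measured genes were higher. Of 24 listed genes 18 were measured, 9 were higher by 2-fold or more and none was lower by 2-fold, against 4.96% and 2.25% of all measured genes. Their median difference was 1.00, against 0.64 for the laminin chains and -0.04 over all measured genes. The list was drawn up with earlier results of these libraries known, so these counts are a description.

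Type IV collagen forms the second network of the basement membrane, and its gene COL4A1 had the largest difference of the list. COL4A1 had 121 FPKM in the knockdown and 13.98 FPKM in the control library (3.03), and COL4A2 had 176 FPKM in the knockdown and 48.9 FPKM in the control library (1.83). COL4A5 (1.57) and COL4A6 (1.02) also passed 2-fold, though COL4A5 was at 0.96 with fragments left out and COL4A6 at 0.87 by its highest transcript, and COL4A4 (0.80) and COL4A3 (0.70) did not pass. The level of COL4A1 relative to LAMC1 was 1.03 in the knockdown and 0.236 in the control library. The linkers between the networks were NID1, nidogen 1, which binds the gamma 1 short arm, at 19.3 FPKM in the knockdown and 4.04 FPKM in the control library (2.01), and HSPG2, perlecan, at 42.9 FPKM in the knockdown and 20.2 FPKM in the control library (1.05). AGRN, agrin, which binds the laminin coiled coil, had 40.2 FPKM in the knockdown and 31.7 FPKM in the control library (0.33). COL7A1, the anchoring fibril collagen, had 90.6 FPKM in the knockdown and 17.5 FPKM in the control library (2.31).

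Other genes past 2-fold were SPARC, a collagen-binding protein (2.25), and PXDN, the peroxidase that cross-links type IV collagen (1.65). Lower in the knockdown library, without reaching 2-fold, were NTN4, netrin 4, which binds gamma 1 and interrupts laminin networks, at 30.9 FPKM in the knockdown and 43.1 FPKM in the control library (-0.47), and FBLN1, fibulin 1, at 26.0 FPKM in the knockdown and 35.2 FPKM in the control library (-0.43). HSPG2, COL18A1 and NID2 overlap exons of protein-coding genes on the opposite strand, and COL4A2, COL4A3 and SPARC overlap exons of antisense genes, so their values are uncertain to that extent.

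**Figure D4:**
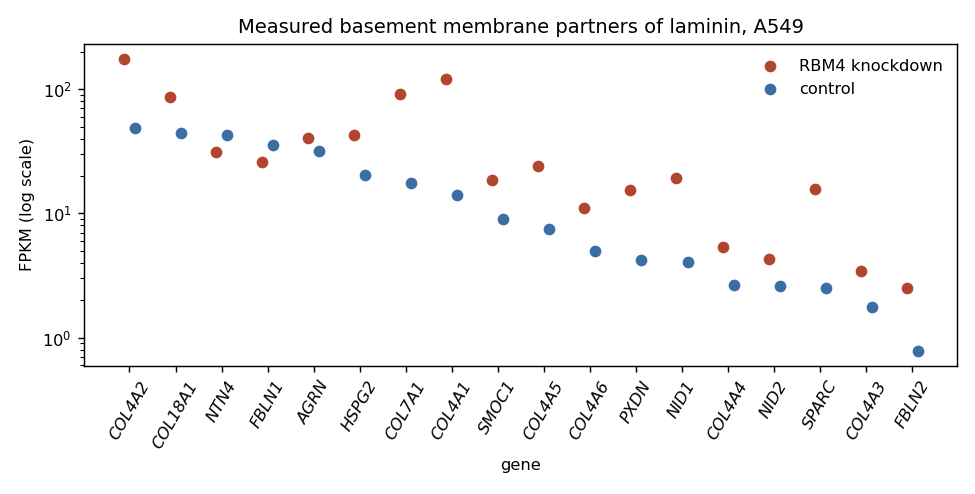
FPKM (log axis) of the 18 measured basement membrane genes, from the highest to the lowest control level, in the RBM4 knockdown library (left point) and the control library (right point). COL4A1 is far apart, at 121 FPKM in the knockdown and 13.98 FPKM in the control library, and NTN4 and FBLN1 are the 2 genes with the knockdown point below the control point.

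Laminin receptors were mixed. Of 14 listed genes 13 were measured, with a median difference of 0.54, against -0.04 over all measured genes. By 2-fold, 3 were higher and none lower, against 4.96% and 2.25% of all measured genes. ITGA2, a collagen and laminin receptor subunit, had 59.1 FPKM in the knockdown and 14.1 FPKM in the control library (1.996). SDC4, a heparan sulfate proteoglycan of the cell surface, had 47.2 FPKM in the knockdown and 19.8 FPKM in the control library (1.21). ITGA1 (1.30), with 2.96 FPKM in the knockdown and 0.605 FPKM in the control library, shares exons with PELO on the same strand and is uncertain. Subunits of the integrins that bind alpha 5 and alpha 3 laminins were ITGA3, at 218 FPKM in the knockdown and 129.7 FPKM in the control library (0.74), ITGA6 (0.21) and ITGB4, at 45.8 FPKM in the knockdown and 28.4 FPKM in the control library (0.67). ITGB1, the beta subunit that pairs with ITGA3 and ITGA6, had the lowest difference of the list, at 391 FPKM in the knockdown and 762 FPKM in the control library (-0.96), and it passed 2-fold by its highest transcript (-1.03). BCAM, a receptor for alpha 5, had 50.5 FPKM in the knockdown and 34.3 FPKM in the control library (0.54), and the dystroglycan gene DAG1 had 43.7 FPKM in the knockdown and 47.3 FPKM in the control library (-0.11). On the opposite strand, ITGB1 overlaps exons of ITGB1-DT and ITGA6 overlaps exons of antisense genes, so both are uncertain to that extent.

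Dystroglycan binds laminin only after a sugar chain is built on it. Of 12 listed genes of that pathway 11 were measured, with a median difference of 0.13, against -0.04 over all measured genes. By 2-fold, 1 was higher and none lower, against 4.96% and 2.25% of all measured genes, so no reading is taken from 1 gene. The gene was LARGE2, which polymerises the laminin-binding repeat, at 4.12 FPKM in the knockdown and 0.834 FPKM in the control library (1.48). By its highest transcript LARGE2 did not pass (0.70). The others ran between 0.41 for POMT2 and -0.55 for POMGNT2. POMT2 overlaps exons of GSTZ1 on the opposite strand and is uncertain to that extent.

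**Figure D5:**
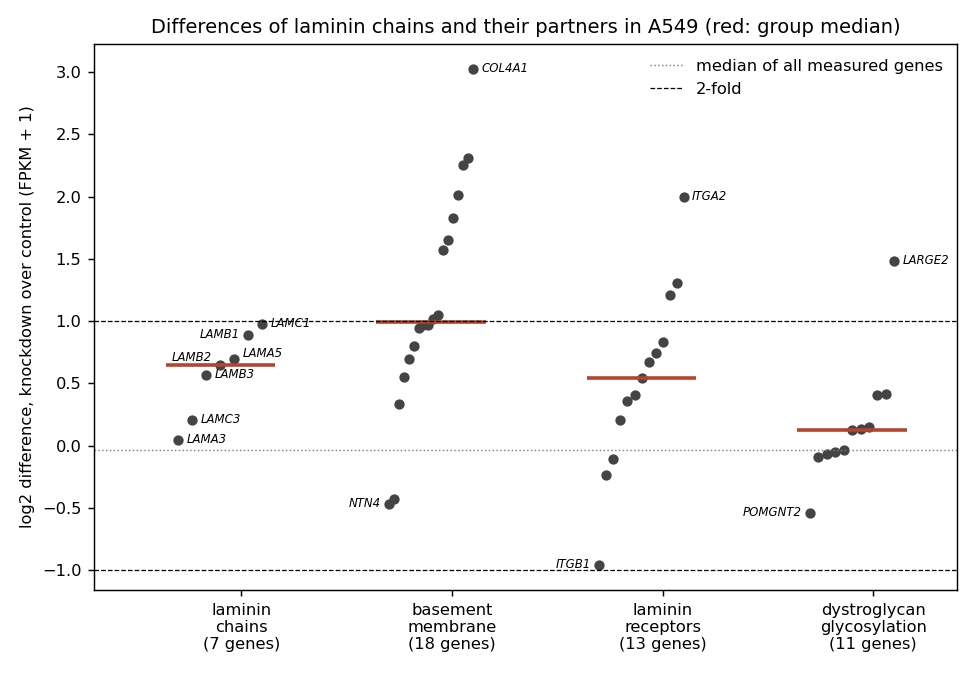
Log2 differences, knockdown over control, of the measured laminin chains, basement membrane genes, laminin receptors and dystroglycan glycosylation genes (1 point per gene, red line at the group median, dashed lines at 2-fold, dotted line at the median of all measured genes). The 7 laminin points lie between 0.05 and 0.98, and the basement membrane list reaches 3.03 at COL4A1.

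Most markers of other cell types were below 1 FPKM in both libraries, and most of those measured were higher in the knockdown library along with the matrix genes. Of 10 fibroblast markers 3 were measured, and the list summed to 46.4 FPKM in the knockdown and 22.7 FPKM in the control library, with DCN at 0 in both and COL3A1 at 0.0388 FPKM in the knockdown and 0.0274 FPKM in the control library. The measured ones were THY1, at 26.0 FPKM in the knockdown and 5.73 FPKM in the control library (2.003), COL1A1 (1.54) and TWIST2, at 9.60 FPKM in the knockdown and 14.0 FPKM in the control library (-0.50). Of 9 endothelial markers only ESAM was measured, at 18.5 FPKM in the knockdown and 3.04 FPKM in the control library, out of a list sum of 19.0 FPKM in the knockdown and 3.04 FPKM in the control library, and VWF, KDR and EMCN were at 0 in both. Of 7 immune markers CD68, at 25.8 FPKM in the knockdown and 6.90 FPKM in the control library (1.76), and CD14 (0.75) were measured, the list summed to 31.1 FPKM in the knockdown and 9.62 FPKM in the control library, and CD3E and HBB were at 0 in both. Of 14 lung epithelial markers 6 were measured and the sum was 1814 FPKM in the knockdown and 3513 FPKM in the control library, nearly all of it KRT8 (-0.89) and KRT18 (-1.02), with EPCAM (0.01), CDH1 (-0.21), AGER (-0.13) and TP63 (0.30) far lower. Of the 14, 5 were at 0 in both libraries, among them NKX2-1, SFTPB and SCGB1A1, known from alveolar or airway cells. Others were below 1 FPKM without being at 0 in both. SFTPC had 0.354 FPKM in the knockdown and 0 in the control library. NAPSA had 0.479 FPKM in the knockdown and 0.617 FPKM in the control library, and FOXJ1 0.0431 and 0.104 FPKM. The part of these markers in the laminin differences was not tested.

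The genes nearest to LAMC1, the member with the highest difference, by Euclidean distance of log2 FPKM plus 1 over the 2 libraries were EEF1A2 (distance 0.062), TNFRSF10B (distance 0.065) and ZYX (distance 0.083). Those nearest to LAMA3, the measured member with the lowest difference, were MED21 (distance 0.021), FOXN2 (distance 0.023) and THAP11 (distance 0.024). With only 2 libraries such a likeness means similar levels in both and no more.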

How the data were processed

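Messenger RNA of A549 cells with a knockdown of RBM4 and of A549 control cells was measured with 1 library each. Per the labels' protocols, RNA was taken with Trizol and libraries were made with an Illumina TruSeq RNA kit. The submitters' processing notes name build hg38 and the tools TopHat, Cufflinks and CASAVA 1.8.2. The role of each tool, the annotation, strand setting and filters are not given in the sources used here. As a unit, the authors deposited FPKM per transcript (79989 in the A549 table), with no counts, so depth is unknown and no interval could be given. The column named for the line alone was taken as the control, and that with an added number as the knockdown. The other table held 3 columns of values under names that match no label; these were not used, and H1299 was not analysed here.

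FPKM was summed per symbol (26 symbols joined 2 gene identifiers), with a pseudocount of 1 FPKM and a minimum of 1 FPKM in either library. With 1 library per group there is no test and no p-value, and genes are counted past 2-fold. Transcript lengths, positions and coding ends came from GENCODE release 29, to which 99.5% of transcripts matched. Python 3.11.15, pandas 2.3.3 and numpy 2.4.6 were used, and the counting was tested on simulated data. The members, partner lists and trimers were chosen with earlier results of these data known, and 2 genes of the lists are not reported here. Genes were named by this rule: the 9 members; RBM4; measured members of a partner list past 2-fold, or the 2 highest and 2 lowest where none was; measured markers; and the 3 genes nearest to 2 members. NTN4, FBLN1, COL18A1, NID2, ITGB1, POMGNT2, AGRN, COL4A3, COL4A4, ITGA3, ITGA6, ITGB4, BCAM, DAG1, POMT2 and the markers below 1 FPKM were named after their values were seen. The 7 alternatives are another pseudocount, no minimum, a minimum of 5 FPKM, scaling to the same total, the same without mitochondrial genes, the highest transcript, and, chosen after seeing the data, only transcripts with complete coding ends.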

Additional observations from a re-analysis of the deposited data

How the results depend on the processing

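Each of the 7 measured laminin genes stayed above 0 under every one of the 7 alternatives that kept it measured (LAMC3 was not measured at a minimum of 5 FPKM). Their ranges were 0.84 to 1.14 for LAMC1, 0.83 to 1.06 for LAMB1, 0.70 to 0.86 for LAMA5, 0.44 to 0.81 for LAMB2, 0.53 to 0.73 for LAMB3, 0.20 to 0.33 for LAMC3 and 0.05 to 0.20 for LAMA3. The count of members past 2-fold was 0 as reported and 2, LAMB1 and LAMC1, after scaling to the same total and 2 without mitochondrial genes. The median over all genes, -0.04 as reported, was 0.064 and 0.12 in those settings. The median of the laminins, 0.64 as reported, was 0.67 with a pseudocount of 0.1, 0.57 with no minimum, 0.67 at a minimum of 5 FPKM, 0.75 after scaling, 0.81 without mitochondrial genes and 0.53 by the highest transcript. Over all genes, 607 higher and 275 lower became 985 and 418 with a pseudocount of 0.1, and 909 and 194 without mitochondrial genes. Among laminin receptors 1 gene, ITGB1, was lower by 2-fold by the highest transcript, in place of 0. Dystroglycan glycosylation genes higher by 2-fold were 0 at a minimum of 5 FPKM, which LARGE2 does not reach, and 0 by the highest transcript, in place of 1. Among values of single named genes across the alternatives, 318 kept their side of 2-fold, 15 passed it newly, 3 no longer passed it and none changed sign. Trimers allowed were 8 in each library at 0.5 FPKM, in place of 5. Scaling multiplies every level of a library by a constant set by its total, so it shifts the differences of all genes together. Measured from the median of all genes, LAMC1 was at 1.01 as reported, 1.02 after scaling and 1.02 without mitochondrial genes. Why the totals of the libraries differ was not tested. No paired analysis was possible because each group has 1 library. Unknown depth and the lack of replicates limit every value, above all those of LAMA2, LAMA4 and LAMC3.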

Other observations

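The 2 chains of the common type IV collagen trimer, COL4A1 and COL4A2, are neighbouring genes transcribed in opposite directions, and their ratio was not the same in the libraries. COL4A2 stood at 1.45 times COL4A1 in the knockdown library and at 3.50 times in the control library. Among laminin receptors, ITGB1 stood at 1.798 times ITGA3 in the knockdown library and at 5.87 times in the control library. LAMB1 and LAMC1, by contrast, had a ratio of 1.10 in the knockdown and 1.17 in the control library. These are ratios of 1 library each, without error.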
